A study of Sus scrofa with 20 samples.

Results

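The comparison set the 6 pig backfat libraries with the highest share of mitochondrial RNA against the 6 with the lowest share, out of 20 libraries. The share was the summed counts of 8 mitochondrial loci (ND1, ND2, COX1, COX2, the joined ATP8, ATP6 and COX3 locus, the joined ND4L and ND4 locus, ND5 and CYTB) over all counts of the library. The ends were chosen on this measured share and are no groups of the study. The other 8 libraries lay between them. All 20 samples were subcutaneous backfat from Italian Large White animals of 233 to 250 days and 150 to 160 kg, raised in 1 environment on 1 diet, and poly(A) RNA was sequenced from each. By label 10 were female and 10 castrated male. Beyond castration the labels name no treatment, and they give no line, allele or agent that separated the animals. The 6 libraries of highest share came from 3 females and 3 castrated males by label, and the 6 of lowest share from 2 females and 4 castrated males. Libraries are named by labelled sex and a running number that pairs no animals.

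The mitochondrial genome encodes core subunits of respiratory complexes I, III and IV and of ATP synthase, while complex II and all remaining subunits come from nuclear genes. Both strands of the circular genome are transcribed as long RNAs that are cut at the transfer RNAs between the genes, and most of the resulting messenger RNAs receive a poly(A) tail. In white fat, mitochondria supply the citrate used for making fatty acids in the cytosol, and they also burn fatty acids.

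Libraries differed in ways that touch the results below. Summed counts per library ran from 25754778 to 51248122, and counts outside the 8 loci from 20874174 to 42677135. At 16 of 16 nuclear loci that separated the other 18 libraries by sex without overlap, the libraries labelled castrated male 10 and female 10 were nearer the other sex. The library labelled castrated male 10 had the highest share of all, and the library labelled female 10 was among the 6 lowest. If these labels were exchanged, the high end would hold more females and the low end fewer than by label. The ends may therefore be less even in sex than the labels say, which was not tested. Castrated male 1, the library of lowest share, stood apart in lipid genes, with 292.5 CPM at SCD, a fatty acid desaturase. CPM is the count at a locus scaled to a common total of counts outside the 8 loci. Female 9 came next at 2850 CPM, and the other low libraries had 16300 or more. Between the ends 8 measures of the libraries and animals were compared. They were age, labelled sex, depth, detected loci, the weight of the 10 largest loci, reads without an identifier, transcript length and ribosomal protein reads. Labelled sex had Fisher's exact test and the others two-sided exact permutation tests, with Benjamini-Hochberg adjustment over the 8. None passed, and the smallest adjusted p by the permutation tests was 0.476. With 6 libraries per end, differences may remain. On average the 10 largest loci held 9.64% of nuclear counts at the high end and 7.64% at the low end. Fat cell genes were present in every library, with PLIN4, a lipid droplet coat protein, at 746.5 CPM or more. Age was 235 to 247 days in the 6 high libraries and 233 to 250 days in the 6 low ones.

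The share ran from 8.30% to 25.5%, a 3.07-fold range. In falling order the 6 high libraries were the library labelled castrated male 10 with 25.5%, female 3 with 20.998%, castrated male 9 with 20.6%, castrated male 8 with 18.6%, female 5 with 17.3% and female 1 with 16.7%. The 6 low libraries were the library labelled female 10 with 11.7%, castrated male 6 with 11.3%, castrated male 5 with 11.2%, female 9 with 10.3%, castrated male 2 with 9.89% and castrated male 1 with 8.30%. The ends averaged 19.9% ± 3.21 (SD, n = 6) and 10.4% ± 1.24 (SD, n = 6). Castrated male 3, at 15.5%, lay just outside the high end, and female 4, at 11.8%, just outside the low end, so the low end was cut where neighbours nearly met.

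**Figure D1:**
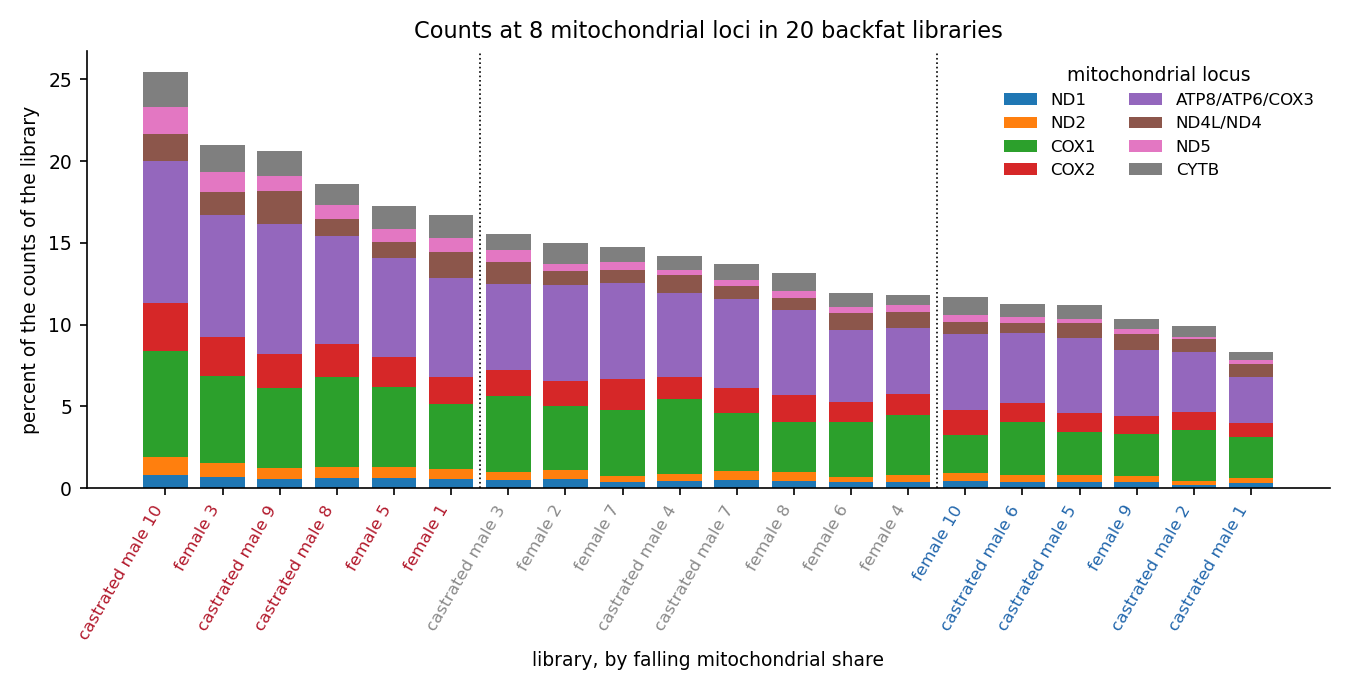
Percent of each library's counts at the 8 mitochondrial loci, stacked by locus, for 20 libraries in falling order of their sum, with dotted lines between the 6 of highest share (red names), the 8 between (grey) and the 6 of lowest share (blue). The sum falls without a step from 25.5% to 8.30%, and every stack is led by the ATP8, ATP6 and COX3 locus and by COX1.

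The share was carried by all 8 loci, with ND5 set apart. These values chose the libraries, or come from the same genome, and are given without a test. Counts at the ATP8, ATP6 and COX3 locus, which holds ATP synthase and complex IV subunits, took 6.08% to 8.66% of a library at the high end and 2.80% to 4.64% at the low end. COX1, the catalytic subunit of complex IV, took 3.98% to 6.47% against 2.30% to 3.25%, and COX2, its partner in electron entry, 1.61% to 2.96% against 0.874% to 1.53%. CYTB, the cytochrome of complex III, took 1.33% to 2.15% against 0.446% to 1.12%. ND1, a membrane subunit of complex I, took 0.531% to 0.816% against 0.216% to 0.431%. At 7 of the 8 loci the ends did not overlap. The exception was ND4L and ND4, where female 5 of the high end had 0.958% and female 9 of the low end 0.980%.

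The ratio of mean percentages between the ends was 1.78 to 2.12 for 7 of the 8 loci and 3.62 for ND5, a proton-pumping subunit of complex I. ND5 made up 5.22% ± 0.847 (SD, n = 6) of the 8-locus sum at the high end and 2.79% ± 0.845 (SD, n = 6) at the low end, with ranges of 4.43% to 6.43% and 1.33% to 3.56% that did not meet. Between the ends it made up 2.51% to 4.97%. ND6, the complex I subunit encoded on the other strand opposite the end of ND5, was not part of the share, and its ratio was 2.95. ND3, also outside the share, had a ratio of 1.78, and its ends overlapped, with a minimum of 0.2005% of counts at the high end and a maximum of 0.2039% at the low end. No source used here says whether reads were counted by strand, so reads of ND5 and ND6 cannot be told apart where the genes overlap. On the length-scaled FPKM values deposited by the authors, the ATP8, ATP6 and COX3 locus was the highest of the 8 over 20 libraries, at 120500 ± 38950 (SD, n = 20), and ND5 the lowest, at 3234 ± 1999 (SD, n = 20). The length implied by counts over FPKM was 0.461 kb at this joined locus, shorter than 0.563 kb at COX2 alone. Its FPKM may therefore be too high beside loci of a single gene, which was not tested.

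Outside the known mitochondrial loci no locus passed the test between the ends. Loci without an identifier were counted as nuclear, although their positions were not known here. The leading locus was IFRD1, a transcriptional co-regulator induced by stress and growth signals, which was lower in all 6 high libraries than in any low one. Of 21686 nuclear loci tested by edgeR's quasi-likelihood test with Benjamini-Hochberg adjustment, 0 had an adjusted p under 0.05, which is 0% of them. At an unadjusted p under 0.05 there were 1260 loci, 722 higher in the high libraries (3.33% of the tested loci) and 538 lower (2.48%). The ends did not overlap at 36 loci on the higher side (0.166%) and 28 on the lower side (0.129%). The log2 difference, high minus low, was above 0 at 48.8% of all tested loci, with a median of -0.0066. DESeq2 on the same counts called 50 loci, 19 higher and 31 lower, with 1496 at an unadjusted p under 0.05. With limma-voom and quality weights 0 were called and 1459 had such a p, and with limma on log2 FPKM 0 were called and 801 had one.

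IFRD1 (ENSSSCG00000016646) had 37.0 to 71.0 CPM at the high end, with a median of 49.7, and 90.2 to 126 CPM at the low end, with a median of 113. The 8 libraries between spanned 42.4 to 172 CPM, wider than both ends together. The log2 difference was -1.12 ± 0.15 (SE), with an adjusted p of 0.0868 in edgeR's fit. It passed in 4 of 29 other analyses: at 0.0159 without female 5, at 0.0434 with the mitochondrial loci kept in the library sizes, at 0.046 with library size alone and at 9.44e-07 by DESeq2. The adjusted p over all 29 reached 0.366. A second locus of the same symbol, at under 2 CPM in every library, had a log2 difference of -0.45.

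The other lower loci of smallest p with a symbol were PPP1R10, NR4A3, DCUN1D3 and GEM. PPP1R10, a nuclear targeting subunit of protein phosphatase 1, had 37.7 to 56.2 CPM at the high end and 65.4 to 83.8 at the low end, without overlap, a log2 difference of -0.56 ± 0.11 (SE). GEM, a small GTP-binding protein that restrains calcium channels, had 163 to 218 CPM against 226 to 434, also without overlap, at -0.67 ± 0.15 (SE). DCUN1D3, a cofactor of cullin neddylation, had 15.3 to 25.1 CPM against 24.5 to 58.4, with 5 of 6 high libraries under every low one. DESeq2 called each of these 4 and IFRD1, all lower, and edgeR called none, with adjusted p from 0.404 to 0.516 for the 4.

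On the higher side the loci described, among those of smallest p with a symbol, were SERTAD4, HIGD1B, BEST1 and RAP1GAP. HIGD1B, a small hypoxia-inducible domain protein found in pericytes, had 26.0 to 36.1 CPM at the high end (median 34.8) and 7.85 to 25.2 at the low end (median 18.8), the only 1 of these 4 without overlap. Its log2 difference was 0.81 ± 0.22 (SE), with an edgeR adjusted p of 0.638. Of the smooth muscle and pericyte markers, 4 of 10 tested loci had a log2 difference above 0, with a median of -0.05. SERTAD4, of a family of cell cycle regulators, had 12.7 to 25.6 CPM against 8.88 to 15.1. BEST1, a chloride channel, and RAP1GAP, which switches off the GTPase Rap1, stood at medians of 1.26 and 2.48 CPM at the high end against 0.611 and 1.09.

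The nuclear subunits of the respiratory chain leaned to the high libraries by a small amount at the ends, and their slope within the 8 libraries between turned on 1 library. Of the 83 subunits listed, 38 had a locus, and 37 of these 38 had a log2 difference above 0, where 48.8% of all loci did. The median was 0.21 and the range from -0.01 to 0.31. Summed by complex, all 5 complexes were lowest in castrated male 1 and highest in female 4, so members moved together by library. Members of a list, here and below, come from the same animals and are not separate observations. On the higher side 3 of the 38 had an unadjusted p under 0.05, where 3.33% of all loci did, and none passed adjustment. Across 29 other analyses between 34 and 38 members lay above 0 and the median ran from 0.106, with 7 libraries per end, to 0.276. Without castrated male 1 the median was 0.129. Within the 3 high and 4 low libraries labelled castrated male, 33 of 38 lay above 0, and within the 3 high and 2 low labelled female 37 of 38 did.

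ATP5MC1, a subunit of the proton-driven ring of ATP synthase, had the smallest p of these genes. It had 85.0 to 99.7 CPM at the high end, with a median of 89.2, and 66.7 to 87.0 at the low end, with a median of 75.3, and castrated male 5 at 87.0 was the only low library inside the high range. The log2 difference was 0.29 ± 0.09 (SE), with an edgeR adjusted p of 0.738. NDUFB6, an accessory subunit of complex I, had 50.5 to 57.6 CPM against 33.1 to 56.5, at 0.30 ± 0.12 (SE), and UQCRQ, of complex III, 83.6 to 101 against 52.6 to 95.5, at 0.31 ± 0.14 (SE). In both genes the ends overlapped and the spread was wider at the low end. Complex II, which has no mitochondrially encoded subunit, gave 0.01 to 0.21 over its 4 loci, with SDHC at 0.01 ± 0.27 (SE) and SDHB at 0.21 ± 0.13 (SE). In complex IV, COX5B stood at 0.30 ± 0.16 (SE), COX7A2 at 0.27 ± 0.13 (SE) and COX4I1 at 0.21 ± 0.17 (SE).

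Summed over the 38 loci, the 6 high libraries had 5488 to 6990 CPM, the 6 low ones 3495 to 6688 and the 8 between 4494 to 8939. Of the 6 low libraries 3 lay inside the high range (5615, 6013 and 6688) and 3 under it, with castrated male 1 (3495) and female 9 (4376) lowest. Female 4, whose share of 11.8% was just above the low end, had the highest sum of all 20. Within the 6 high libraries the sum went down as the share went up, from 6990 CPM in female 1 through 6235 in female 5, 6107 in castrated male 8, 5887 in castrated male 9 and 5511 in female 3 to 5488 in the library labelled castrated male 10. Within the 8 between, 1 of the 38 slopes on the share was above 0, where 51.8% of all nuclear loci had a slope above 0, and the median slope was -0.57 per doubling of the mitochondrial to nuclear count ratio. Without female 4, which had the lowest share of the 8, 26 of 38 slopes were above 0 with a median of 0.16, and without female 2, which had the lowest sum of the 8, 9 of 38 with a median of -0.27. With any other of the 8 left out, 1 of 38 was above 0. Over all 20 libraries 35 of 38 slopes were above 0, with a median of 0.14, where 48.6% of all loci were. NDUFB5, an accessory subunit of complex I fixed by name, had a difference of 0.17 ± 0.16 (SE) between the ends.

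**Figure D2:**
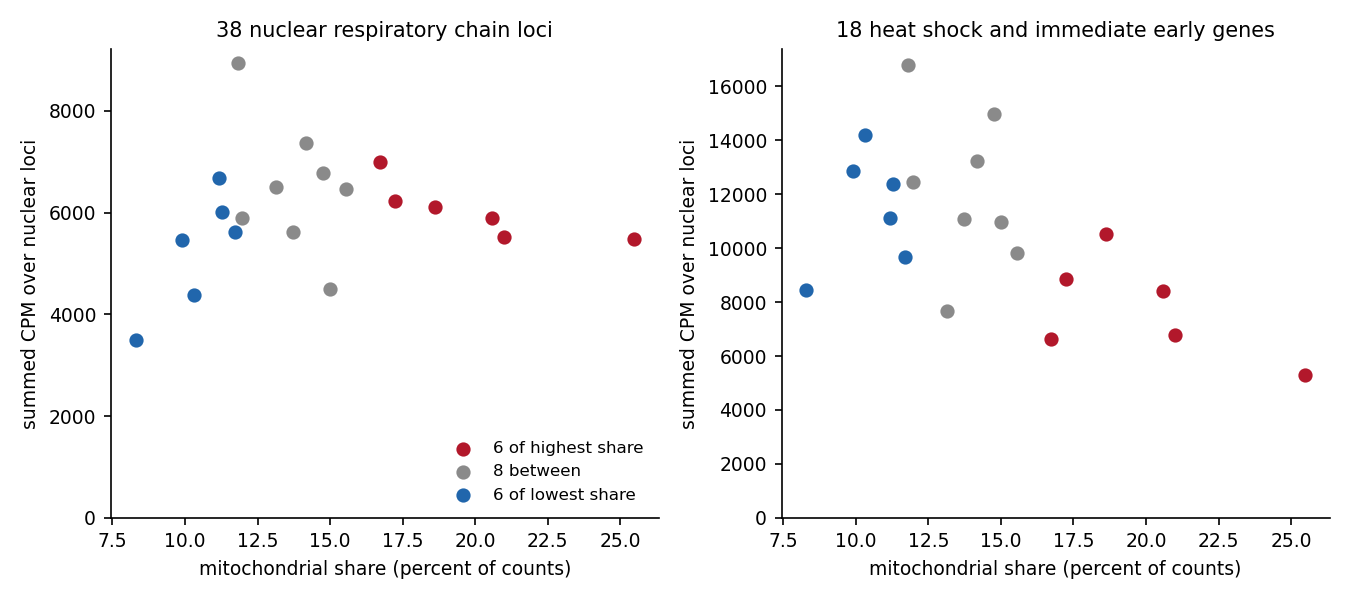
Summed CPM of 38 nuclear respiratory chain loci (left) and of 18 heat shock and immediate early genes (right) against the mitochondrial share in percent of counts, 1 point per library, red for the 6 of highest share, grey for the 8 between and blue for the 6 of lowest share. On the left the red points run down from 6990 to 5488 CPM and the highest point, 8939 CPM, is grey; on the right the red points lie between 5309 and 10520 CPM and the blue between 8437 and 14210.

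In the citric acid cycle, whose list shares the 4 complex II loci with the respiratory chain, 19 of 22 tested loci lay above 0, with a median of 0.14. Within the 8 between 1 of 22 slopes did, and 5 of 22 without female 4. MDH2, the mitochondrial malate dehydrogenase, had 138 to 225 CPM at the high end (median 171.8) and 93.7 to 156 at the low end (median 142.8), at 0.41 ± 0.16 (SE) with an edgeR adjusted p of 0.816. PDHB, of the pyruvate dehydrogenase complex that feeds the cycle, stood at 0.48 ± 0.25 (SE). The median was 0.0439 without castrated male 1, with 14 of 22 above 0, 0.0749 without female 1, 0.082 without female 9 and 0.0497 with 7 libraries per end. Summed over the list, the 6 high libraries again went down in the exact order of rising share, from 6912 CPM in female 1 to 4469 in the library labelled castrated male 10. The 6 low libraries had 3382 to 6499 CPM, lowest in castrated male 1 (3382) and female 9 (4233). Their median was 6129 CPM against 5388 at the high end, and the ratio of means, high over low, was 1.01. The summed list therefore did not lean to the high libraries.

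Genes that copy, transcribe, process and translate mitochondrial DNA and RNA were close to 0. In the list for maintenance and transcription of mitochondrial DNA, 5 of 11 tested loci lay above 0, with a median of -0.01 and a range from -0.30 to 0.14, and no locus had an unadjusted p under 0.05. POLG, the DNA polymerase of mitochondria, stood at -0.30 ± 0.17 (SE), with 33.3 to 54.3 CPM at the high end and 41.1 to 74.3 at the low end. TWNK, the helicase at its replication fork, stood at -0.06 ± 0.14 (SE), and RNASEH1, which removes RNA primers, at -0.15 ± 0.11 (SE). The transcription factor TFAM, the polymerase POLRMT and TFB2M had no locus by symbol. LRPPRC and SLIRP, which together stabilise mitochondrial messenger RNA, stood at -0.17 ± 0.13 (SE) and 0.08 ± 0.24 (SE), and 8 of 15 loci of RNA processing and decay lay above 0. For the mitochondrial ribosome 13 of 40 lay above 0 with a median of -0.03, but 24 of 40 without castrated male 5, 20 without female 3 and 7 without castrated male 1. For cytosolic ribosomal proteins 4 of 23 did with a median of -0.04, but 15 of 23 with a median of 0.0204 without castrated male 5, so neither list had a direction that held. Among regulators of mitochondrial formation, 4 of 12 lay above 0. NRF1, a transcription factor of nuclear respiratory genes, stood at -0.08 ± 0.12 (SE), and the locus that joins ESRRA, another such factor, with PRDX5 at -0.02 ± 0.17 (SE). For these genes the SE leaves room for differences of the size seen at the respiratory chain.

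Heat shock and immediate early genes all leaned to the low libraries. All 18 tested members had lower values in the high libraries, with a median log2 difference of -0.60 and a range from -2.44 to -0.16, and 11 of 18 had an unadjusted p under 0.05, against 2.48% of all loci on this side. None passed edgeR's adjustment over all loci. Over 29 other analyses 0 or 1 members lay above 0 and the median ran from -0.718 to -0.435. Without the libraries numbered 10 the median was -0.518, and without castrated male 1 it was -0.613. Over 20 libraries 0 of 18 slopes were above 0, and within the 8 between 9 of 18 were, or 14 of 18 without female 4. Within the labelled sexes, in which the libraries numbered 10 are in doubt, the median was -0.54 for females and -0.57 for castrated males, with 2 of 18 above 0 in each.

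NR4A3, an orphan nuclear receptor of the immediate early class, had 12.8 to 61.9 CPM at the high end, with a median of 23.4, and 43.4 to 265 CPM at the low end, with a median of 181.9. In 4 of the 6 high libraries it was under every low library, and castrated male 5, at 43.4 CPM, was the only low library within the high range. Its log2 difference was -2.44 ± 0.48 (SE), with an adjusted p of 0.443 by edgeR and 0.000553 by DESeq2. HSPH1, a chaperone of the HSP110 family, had 67.4 to 243 CPM against 226.5 to 1356, with medians of 137.5 and 381, and castrated male 1, at 226.5, was the low library inside the high range. Its log2 difference was -1.95 ± 0.45 (SE), with an adjusted p of 0.583 by edgeR and 0.00887 by DESeq2. The 8 libraries between reached 3820 CPM at HSPH1 in female 4 and 1859 in female 7, above every library at either end.

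The members named next were picked after their values were seen. DNAJB1, a co-chaperone of HSP70, stood at -1.81 ± 0.54 (SE), with medians of 80.6 and 360 CPM. FOS and EGR1, the classic immediate early transcription factors, stood at -0.62 ± 0.24 (SE) and -0.43 ± 0.20 (SE), with medians of 1788 and 2808 CPM for FOS and of 1059 and 1408 for EGR1. HSP90AB1, a constitutive chaperone, was the smallest of the list at -0.16 ± 0.13 (SE). Summed over the list the 6 high libraries had 5309 to 10520 CPM and the 6 low 8437 to 14210, and 4 of the 6 high libraries lay under every low one. Of the high libraries, castrated male 8 at 10520 and female 5 at 8864 were inside the low range.

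**Figure D3:**
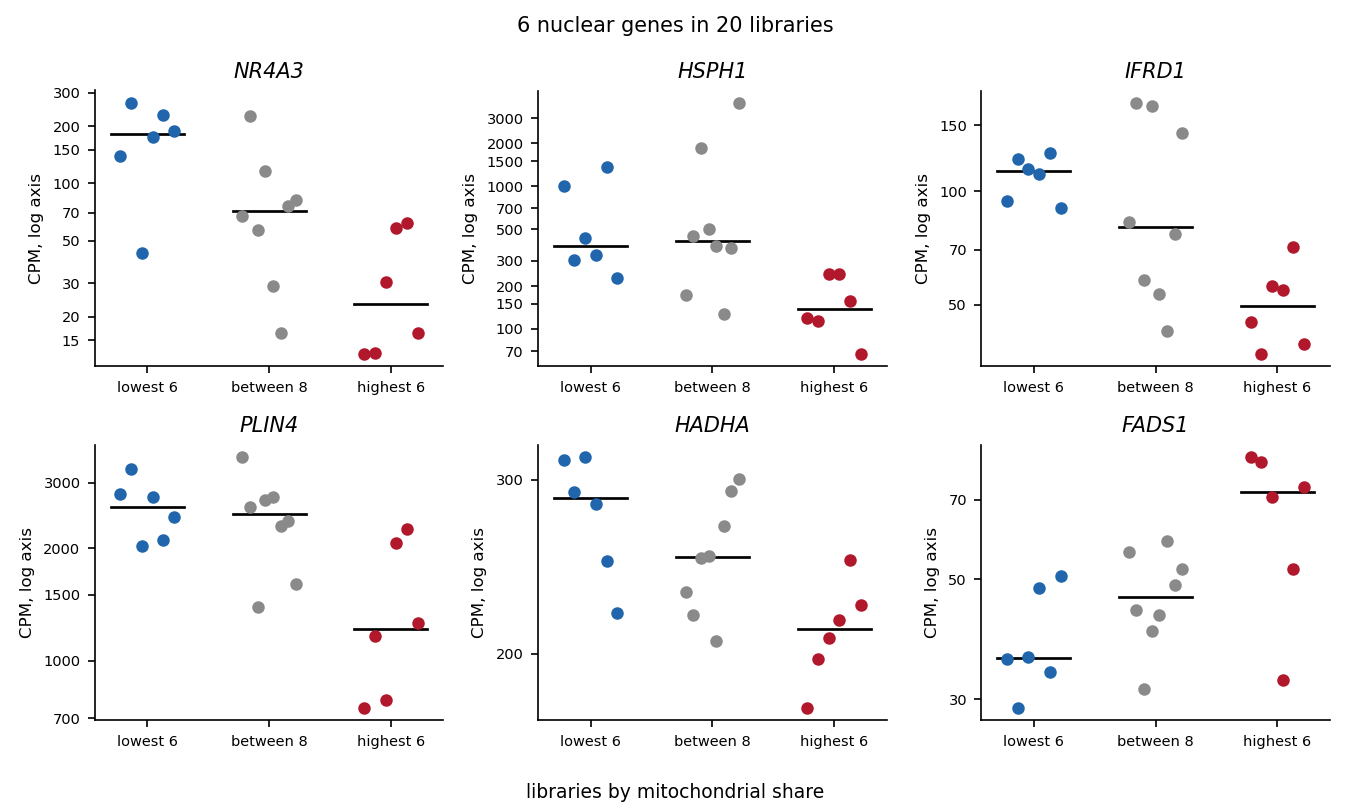
CPM on a log axis of 6 nuclear genes in the 6 libraries of lowest, the 8 of intermediate and the 6 of highest mitochondrial share, 1 point per library, with the median as a line. IFRD1 alone has ends that do not overlap, and the grey points of IFRD1 (42.4 to 172 CPM) and HSPH1 (127 to 3820 CPM) spread wider than either end.

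Lists of fat storage and release leaned to different ends, with no locus called by edgeR. Lipolysis, the release of fatty acids from triglyceride, had 1 of 10 tested loci above 0, with a median of -0.22 and 3 loci at an unadjusted p under 0.05 on the lower side, where 2.48% of all loci were. ABHD5, the activator of adipose triglyceride lipase, had 83.7 to 167 CPM at the high end (median 111) and 141 to 203 at the low end (median 159.6), at -0.50 ± 0.17 (SE). ADRB1, a beta-adrenergic receptor that starts lipolysis, had 28.5 to 63.7 CPM against 40.8 to 97.4, at -0.55 ± 0.21 (SE). PNPLA2, the lipase itself, stood at -0.23 ± 0.20 (SE). LIPE, hormone-sensitive lipase, had 3 loci of that symbol with values of -0.39, -0.20 and -0.04, the second of which turned above 0 without the libraries numbered 10. The median of the list was -0.09 without the libraries numbered 10 and -0.329 without castrated male 1.

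In triglyceride assembly and the lipid droplet 4 of 14 loci lay above 0, with a median of -0.14. PLIN4, a droplet coat protein of adipocytes, had 746.5 to 2256 CPM at the high end, with a median of 1213, and 2028 to 3261 at the low end, with a median of 2586. In 4 of the 6 high libraries it was under every low library, and castrated male 8 and female 5 were inside the low range. The log2 difference was -0.89 ± 0.26 (SE), with an edgeR adjusted p of 0.664. CIDEC, which enlarges droplets, stood at 0.12 ± 0.31 (SE). Without the libraries numbered 10 the list had 7 of 14 above 0, and its median was -0.0819 without the library labelled female 10 alone and -0.263 without castrated male 1.

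UCP2, an uncoupling protein of the mitochondrial inner membrane, stood at 0.22 ± 0.33 (SE). Fatty acid synthesis had 14 of 17 loci above 0, with a median of 0.33, and 3 loci at an unadjusted p under 0.05 on the higher side, where 3.33% of all loci were. The median was 0.214 without female 9 and 0.178 with 7 libraries per end. FADS1, the delta-5 desaturase of polyunsaturated fatty acids, had 32.5 to 83.8 CPM at the high end (median 72.3) and 28.9 to 50.6 at the low end (median 35.8). In 5 of the 6 high libraries it was above every low library, and castrated male 8, at 32.5, was the exception. The log2 difference was 0.77 ± 0.22 (SE), with an edgeR adjusted p of 0.664. FADS2, the delta-6 desaturase, stood at 0.51 ± 0.19 (SE). SCD, which makes monounsaturated fatty acids, had 9205 to 25320 CPM against 292.5 to 30770, and FASN, the fatty acid synthase, 564 to 4607 against 96.3 to 4269, so the ends overlapped almost fully. Within the 8 between 0 of 17 slopes lay above 0, with a median of -1.22 per doubling, which was -0.55 without female 4, -0.698 without female 2 and -2.61 without castrated male 3. Between the ends 11 of 17 lay above 0 without castrated male 1.

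Mitochondrial fatty acid oxidation had 8 of 21 loci above 0, with a median of -0.04, and 12 of 21 without female 3 or 11 of 21 without the library labelled female 10. HADHA, of the trifunctional protein that shortens long acyl chains, had 176 to 249 CPM at the high end (median 212) and 220 to 316 at the low end (median 288). The log2 difference was -0.40 ± 0.12 (SE), with an edgeR adjusted p of 0.664. SLC25A20, the carnitine carrier that admits acyl chains, had 2 loci of that symbol with values of -0.38 ± 0.16 (SE) and 0.44 ± 0.20 (SE), the second at 5.57 to 13.8 CPM in both ends together. Among adipocyte factors 4 of 13 lay above 0, with a median of -0.24 that was -0.149 without the library labelled female 10 and -0.122 without both libraries numbered 10. RBP4, a retinol carrier, stood at -0.47 ± 0.17 (SE) and PPARG, the master regulator of fat cells, at -0.22 ± 0.21 (SE). In the hypoxia list 5 of 16 lay above 0, with a median of -0.09 that was -0.172 without castrated male 8, and ADM, the vessel-widening peptide, had 58.7 to 126 CPM against 104 to 199.5, at -0.79 ± 0.19 (SE). ANGPTL4, an inhibitor of lipoprotein lipase, stood at -0.73 ± 0.23 (SE) at its main locus.

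**Figure D4:**
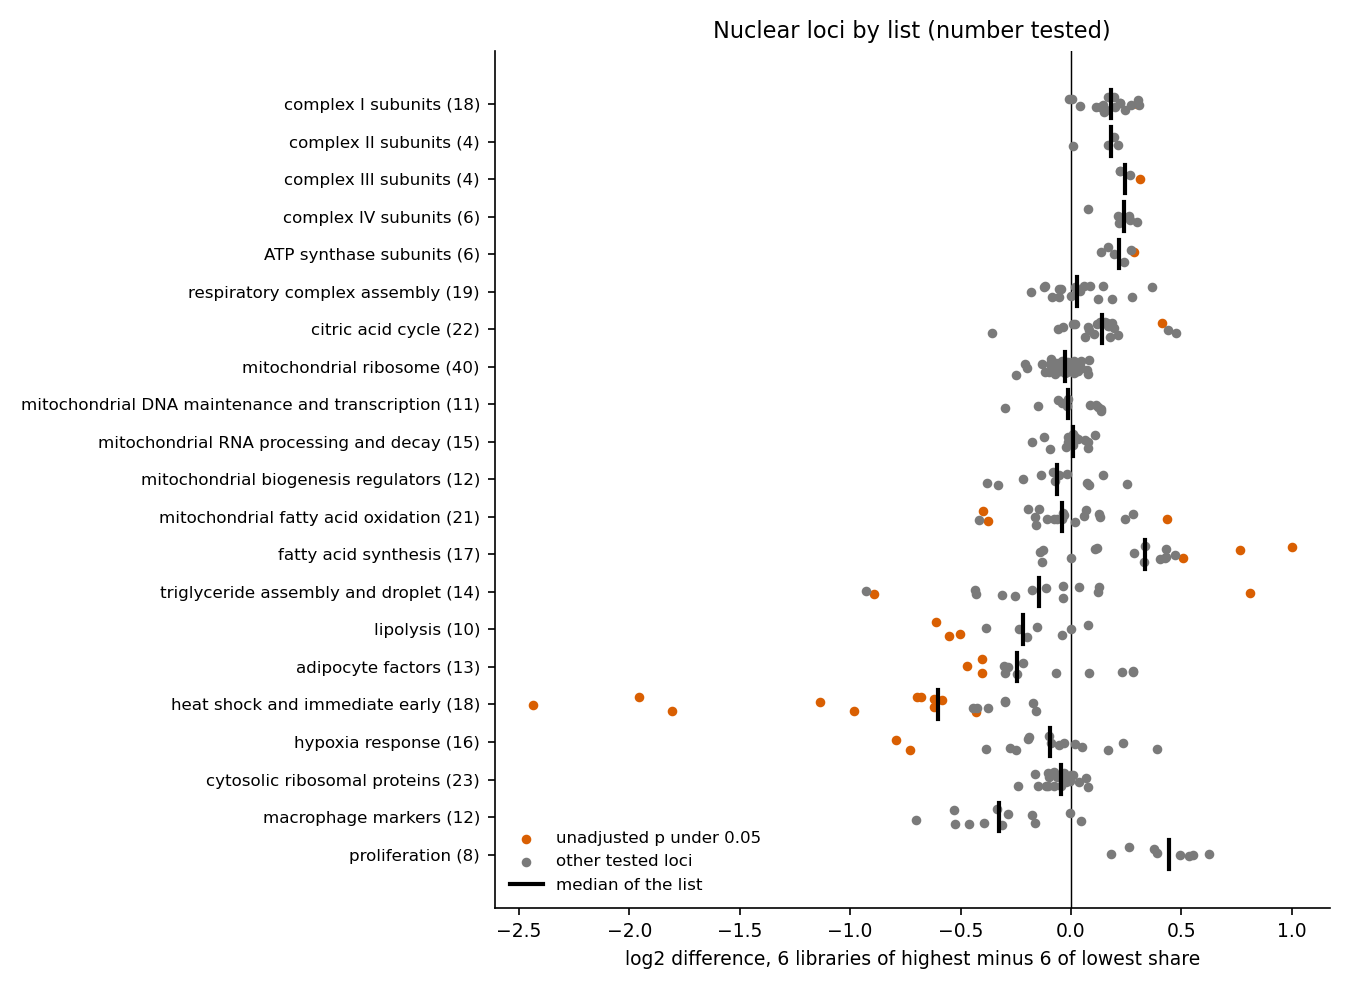
Log2 difference of CPM, 6 libraries of highest minus 6 of lowest share, for each tested locus of 21 lists, orange where the unadjusted p was under 0.05, with the median of the list as a black bar and the number tested in brackets. Heat shock and immediate early genes lie wholly left of 0 (median -0.60), the 5 lists of respiratory complexes lie between -0.01 and 0.31, and the mitochondrial ribosome centres on -0.03.

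Markers of other cell types gave no member past the test. Macrophage markers had 1 of 12 loci above 0, with a median of -0.32, but 9 of 12 and a median of 0.148 without castrated male 1, and within the 8 between 12 of 12 slopes lay above 0, or 9 of 12 without female 2. The summed marker CPM was 416 to 1585 at the high end and 436 to 2093 at the low end, with castrated male 8 and castrated male 1 at the tops. Within the libraries labelled female 11 of 12 lay above 0, and within those labelled castrated male 2 of 12. In bulk tissue, fewer cells of a type and less RNA per cell cannot be told apart. Endothelial markers had 3 of 9 above 0 with a median of -0.04, lymphocyte markers (T and NK) 9 of 13 with 0.19, fibroblast and matrix genes 10 of 17 with 0.11, and skeletal muscle markers summed to 29.5 to 50.5 CPM at the high end and 13.9 to 48.0 at the low end. Red blood cell markers summed to 51.9 to 912 CPM against 67.8 to 239, and the top, castrated male 8, was set by HBB, a haemoglobin chain, at 859.9 CPM. All 8 tested proliferation genes lay above 0, with a median of 0.44 and no locus at an unadjusted p under 0.05. The part of these cell types in the values above was not tested.

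**Figure D5:**
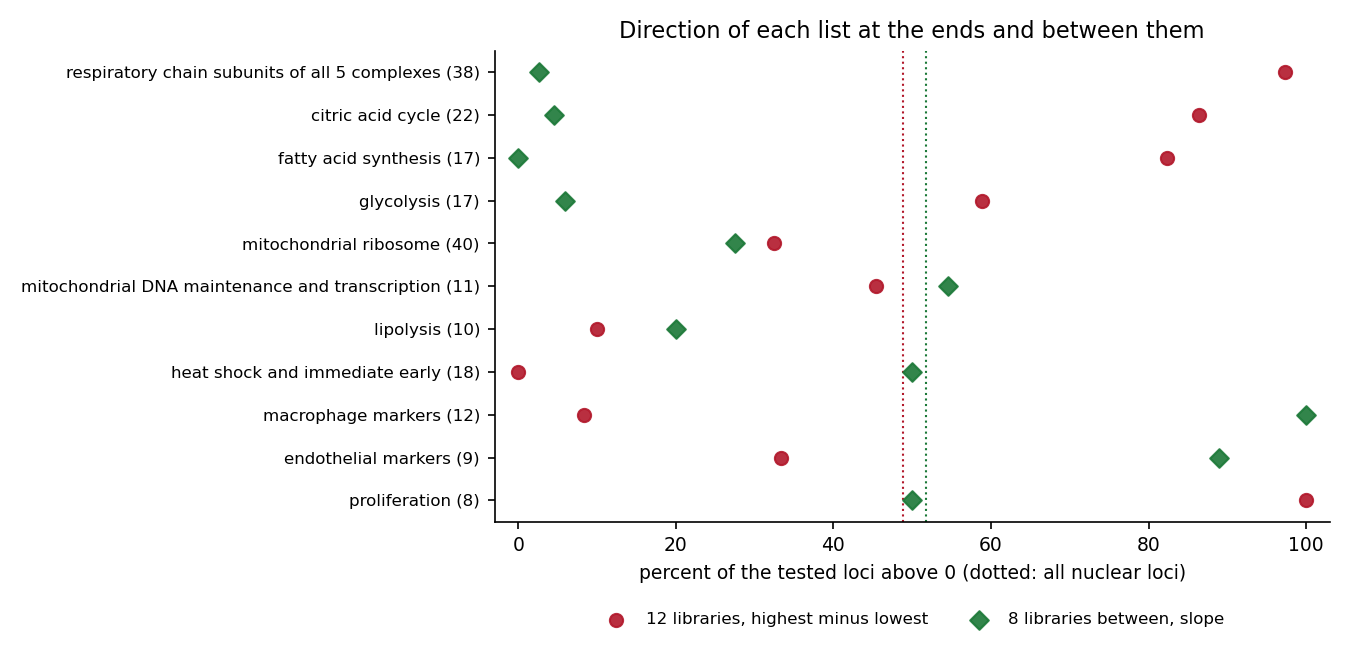
Percent of the tested loci of 11 lists with a log2 difference above 0 between the ends (red circles) and with a slope on the share above 0 within the 8 libraries between (green diamonds), with dotted lines at 48.8% and 51.8% for all nuclear loci. Respiratory chain, citric acid cycle and fatty acid synthesis sit near the right edge in red and near the left edge in green, and macrophage markers the other way round; without female 4 the green value of the respiratory chain is 26 of 38.

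Loci without an Ensembl identifier were a larger share of the loci on the higher side than of all loci. They were 43.3% of the tested loci, 64.0% of the 722 at an unadjusted p under 0.05 on the higher side and 31.0% of the 538 on the lower side. They were 30 of the 36 loci on the higher side whose ends did not overlap and 8 of the 28 on the lower side. Among 5 bins of transcript length, the shortest had a median log2 difference of -0.04 and the longest 0.02. What these transcripts are was not examined, nor whether all of them are nuclear.

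Across all 20 libraries, with the log2 ratio of mitochondrial to nuclear counts as a continuous term, 2 of 18780 loci passed edgeR's adjustment (0.0106%), and both lacked an identifier. XLOC_028170 had 10.9 to 29.3 CPM at the high end, 7.82 to 11.7 between and 5.47 to 11.3 at the low end, a slope of 1.14 ± 0.17 (SE) per doubling with an adjusted p of 0.00517. XLOC_027225 had 3.72 to 6.18 CPM at the high end, 1.39 to 3.00 between and 1.26 to 2.91 at the low end, with a slope of 1.28 ± 0.21 (SE) and an adjusted p of 0.0151. At XLOC_027225 every high library was above the other 14. At XLOC_028170 female 3 of the high end, at 10.9 CPM, was under the library labelled female 10, at 11.3. It was also under several of the 8 between, which reached 11.7 in female 4. Neither separated the 8 between from the 6 low ones. Without the library labelled castrated male 10, 0 loci passed, without castrated male 1 or castrated male 9 each 1 did, and DESeq2 called 22. At an unadjusted p under 0.05 there were 825 loci of positive slope (4.39%) and 802 of negative slope (4.27%). Within the 8 between, edgeR called 0 of 18780 loci, with 691 at an unadjusted p under 0.05 (362 without female 4), over a range of the log2 ratio of 0.46 compared with 1.92 for all 20.

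The nuclear loci with a symbol whose CPM ranked most like the share over the 20 libraries are given as a description, among 6105 with a mean of at least 10 CPM. The most alike were SERTAD4 with a Spearman rho of 0.656 and PAPSS2, which makes the sulfate donor for proteoglycans, with 0.635. Next came the locus with the symbol SNORD93 with 0.630, FAM171B with 0.618 and HIGD1B with 0.609. SNORD93 names a small nucleolar RNA, but counts over FPKM implied a length of 3.19 kb at its locus. The reads there may come from a longer transcript, which was not examined. The most opposed were C1orf74 with -0.758, ZNF277, a zinc finger protein, with -0.743, GPR108, a Golgi membrane protein, with -0.732, SCAMP2, a carrier of vesicle traffic, with -0.729 and ANO3, a membrane protein of the anoctamin family, with -0.707. At C1orf74, ZNF277 and, narrowly, ANO3 the ends did not overlap, and C1orf74 had 17.2 to 24.6 CPM at the high end against 25.5 to 30.6 at the low end. The locus number of ZNF277 follows that of the second IFRD1 locus. Whether ZNF277 and IFRD1 share reads was not tested, so they may not be separate results. None of these 10 loci is a respiratory chain gene.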

How the data were processed

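Per the labels' protocols, backfat was frozen in liquid nitrogen, RNA was extracted with Trizol, and oligo-dT TruSeq libraries were sequenced on an Illumina HiSeq as paired reads of 100 bp. Tools listed by the submitters' processing notes were Cufflinks 2.1.1, DESeq2, TopHat2 2.0.8 and Bowtie2 2.1.0.0, with Sscrofa10.2 as the build. Which tool counted reads, the strand setting and the annotation were not stated. The authors deposited raw read counts for 23483 loci in 20 libraries, and FPKM values (fragments scaled by transcript length and depth) for the same loci, per the file headers. No positions or sequences are given, since no genome of that build was used here. Of the loci, 12707 had an Ensembl identifier and 8951 a symbol of their own.

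The 8 mitochondrial loci were removed before library sizes and TMM factors were computed, so values are CPM of nuclear counts. Loci passing filterByExpr were tested with edgeR 4.0.16 in R 4.3.3 (glmQLFit and glmQLFTest, Benjamini-Hochberg adjustment, threshold 0.05). The fits were the 6 high against the 6 low libraries, and slopes on the log2 ratio of mitochondrial to nuclear counts over 20 libraries and within the 8 between. Alternatives used DESeq2 1.42.0, limma 3.58.1 (voom with quality weights, and trend on log2 of FPKM plus 0.1), other factors and filters, covariates (sex, age, depth), other numbers of libraries per end and each library left out. Library measures were compared by exact permutation tests over 924 splits (smallest p 0.002), and labelled sex by Fisher's exact test, in Python 3.11.15. The edgeR fits were checked on simulated counts in which each locus was drawn independently. The check therefore does not cover shifts that many loci of a library share. Each library is 1 animal, so p-values measure the spread between these animals, and no 2 libraries held identical counts.

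Members and lists were chosen with earlier results of these data known. Named were the mitochondrial loci, the 5 loci with a symbol of smallest p per direction, up to 2 members of smallest p for each list described by members, a fixed set of genes, and the 5 most alike and 5 most opposed to the share in rank; others are marked in the text, and a few loci that this rule names are not reported here. Gene names were matched to the files' symbols exactly, and TFAM, POLRMT, TFB2M, PPARGC1A, CS, ATP5F1B, MYH7 and CKM of the fixed set had no locus by symbol.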

Additional observations from a re-analysis of the deposited data

Results flagged for a closer look

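Of 123 groups of libraries looked at, 7 held a library whose gap to its nearest neighbour was a larger part of the group's range than Dixon's 95% value allows. Chance flags about 1 in 20 groups.

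Among the 6 libraries of highest share, castrated male 8 stood apart with 1585 CPM summed over macrophage markers, where the next was 759.3. Female 1 stood apart with 4812 CPM summed over adipocyte factors, and female 3 with 50.52 CPM at NDUFB6, under the other 5, which lay between 55.85 and 57.63.

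Among the 8 libraries between, female 4 stood apart with 3820 CPM at HSPH1, female 2 with 115.8 CPM at PPP1R10, female 8 with 89.12 CPM summed over proliferation genes, and female 7 with 839.7 CPM summed over mitochondrial RNA processing and decay, the only one of these 4 that lay low. None was found among the 6 libraries of lowest share.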

How the results depend on the processing

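Between the ends, edgeR called 0 loci, and 29 other analyses called 0 as well except 1 with library size alone, 1 with the mitochondrial loci kept in the library sizes, 1 without female 5 and 50 by DESeq2. Leaving out 1 library at a time gave 0 to 1 called loci, with 968 to 1767 at an unadjusted p under 0.05. The single locus called in the first 3 of these was IFRD1. Among the 29 was a ranking of libraries by mitochondrial counts over scaled nuclear counts. It gave the same values as the fit reported above, with 1260 loci at an unadjusted p under 0.05, and so is no separate check. The slope over 20 libraries called 2 loci, against 22 by DESeq2, 0 without the libraries numbered 10, 1 without castrated male 1 and 0 to 3 with 1 library left out. The removal of ND3 and ND6, and the leaving out of each of the 8 libraries between, were chosen after seeing the data and left 0 called.

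An uncalled value was counted as turned in sign only where it moved by over 1 SE (a locus) or 1 SD between libraries (a list). On this count the median of mitochondrial RNA processing turned to -0.0584 and the minor ANGPTL4 locus to -0.208 with limma on log2 FPKM. The second LIPE locus turned to 0.217 without the libraries numbered 10 and to 0.396 with 5 libraries per end, lay between -0.368 and 0.273 with 1 library left out, and UCP2 turned to -0.222 with 5 libraries per end. Leaving out 1 library put the median of mitochondrial DNA maintenance between -0.0322 and 0.0774, the latter without female 3. No paired analysis was possible because the running numbers come from accession order and pair no animals. Depth limits the loci of a few CPM, such as BEST1 and SLIRP, which rest on few reads per library.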
